A study of Mus musculus with 4 samples.

Results

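M8 and M32 are 2 mouse tumour cell lines of colon origin that carry mutations induced with N-ethyl-N-nitrosourea (ENU), an alkylating mutagen that mostly causes point mutations. They were compared with each other, without the control line as a reference. The comparison took every gene of the deposited count table with at least 50 counts in the higher of the 2 libraries, which left 10947 of 41457 genes; 19128 genes had a count in at least 1 of the 2 libraries. The series also holds the control line of the same tissue and a further ENU mutant line, M83, and their values are given beside those of M8 and M32 as levels. All 4 lines were grown in RPMI medium, with no treatment named, and poly(A)-selected RNA libraries were made from each. The labels give the genotype of M8, M32 and M83 only as ENU mutant. They name neither the parent line, the mutated genes nor whether a line is 1 clone.

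Each line is represented by 1 column of counts, called a library here although it is not stated whether a column is 1 library or a sum of several, so the spread between cultures of a line is unknown and no difference was tested. Ratios are of CPM, the counts of a gene scaled to a library total of 1000000. The 95% intervals of these ratios, given in parentheses after a fold, are exact Clopper-Pearson intervals and cover counting error only. No molecular identifiers are named, so reads are not taken as independent molecules. Where 4 counts are given for a gene they stand in the order control, M8, M32 and M83. Log2 ratios are M8 over M32, so a negative value means a lower level in M8. A count of 0 was set to 3 counts in the ratio. For such a gene the fold given is the lower limit of its 95% interval, which was computed from the counts themselves. In bulk RNA of this kind, fewer cells of a type and less RNA per cell cannot be told apart.

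Library totals lay between 25818148 counts in the control and 28879954 in M8, with 27312207 in M32. The labelled tissue was checked against marker genes. None of 20 epithelial junction and intestinal identity genes reached 50 counts in M8 or M32, and Epcam, Cdx2 and Hnf4a had 0 counts in both, while 18 of 23 fibroblast and mesenchymal genes were counted, among them Vim with 124169 counts in M8 and 129869 in M32. The junction and identity markers of colon epithelium were thus near 0 in both lines. Of 13 keratins 4 were counted, among them the intestinal keratin Krt20 with 3306 counts in M8 and 1008 in M32 and the simple-epithelium keratin Krt18 with 1794 and 992, while its usual partner Krt8 had 22 and 0. Of 26 leukocyte markers, only Cd8a reached the minimum, with 3083 counts in M8 and 4558 in M32, while Ptprc, the pan-leukocyte phosphatase CD45, had 1 and 2 counts. Of 12 endothelial markers 2 were counted, and of 13 erythroid and muscle markers none.

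Several pathways frame the results. Type I interferons bind the receptor pair IFNAR1 and IFNAR2, whose kinases JAK1 and TYK2 activate transcription factors that bind GAAA-rich elements in promoters and switch on antiviral genes. Many of these genes are also kept at a low basal level in cells with no added interferon. ERK kinases, at the end of the RAS, RAF and MEK cascade, switch on immediate early genes and then their own feedback inhibitors. The mitochondrial genome is transcribed by its own polymerase into long transcripts that are cut into ribosomal RNAs, transfer RNAs and messengers for subunits of the respiratory chain.

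Most genes had similar levels in both mutant lines. The median log2 ratio over the 10947 genes was 0.00, 82.3% of genes lay within 1.5-fold and 94.0% within 2-fold. At least 4-fold differences whose interval left out 2-fold were found for 166 genes (1.52%), of which 65 (0.594%) were higher in M8 and 101 (0.923%) higher in M32. At 2-fold, with an interval that left out 1, 232 genes (2.12%) were higher in M8 and 427 (3.90%) higher in M32. The same 4-fold rule gave 155 genes between the control and M8, 164 between the control and M32 and 228 between M8 and M83, the pair that differed most. Of the 166 genes, 152 were protein-coding, 12 had no count in M8 and 8 had none in M32.

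**Figure D1:**
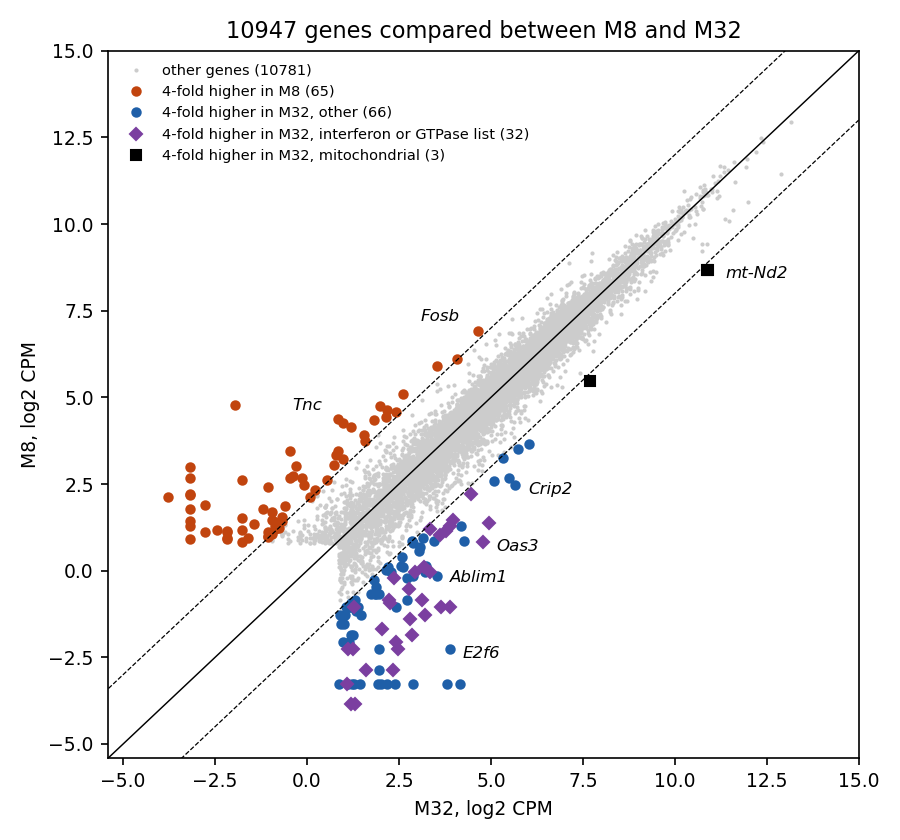
Level of each of the 10947 compared genes in M8 (vertical) and M32 (horizontal) as log2 CPM, 1 library each, with the line of equal levels and dashed lines at 4-fold; a count of 0 is drawn at 3 counts. The 32 interferon and GTPase genes (diamonds) and the 3 mitochondrial messengers (squares) lie below the lower dashed line, and the 65 genes higher in M8 above the upper one.

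The levels in the control and M83 place these differences. Among the 101 genes 4-fold higher in M32, M8 alone lay at least 2-fold outside the range of the other 3 libraries in 65, where it was low, and M32 alone in 27, where it was high. Both lines stood apart in 2 of them and neither in 7. Among the 65 genes 4-fold higher in M8, M32 alone stood apart, and was low, in 28, M8 alone was high in 22, both stood apart in 3 and neither in 12. A low level in M8 was thus the most frequent pattern among these 166 genes.

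Of the 41 gene lists examined, that of type I interferon-stimulated genes held the most genes 4-fold different, and nearly all its members were lower in M8. Of 64 listed type I interferon-stimulated genes 56 were compared; 54 were below a ratio of 1, 36 were at least 2-fold and 23 at least 4-fold higher in M32, against 3.90% and 0.923% of all compared genes. Their median log2 ratio was -1.59. M8 was at least 2-fold below each of the other 3 libraries in 33 of the 56, a pattern seen in 138 of all 10947 genes. Slfn5, a Schlafen family member, was the only listed gene 2-fold higher in M8, with 99 (control), 140 (M8), 61 (M32) and 142 (M83) counts.

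The GAAA-rich element can be read in the promoters of these genes. RefSeq promoters on the build GRCm38.p6, each from 250 bases before to 50 after the annotated start, were searched on both strands for the letters GAAANNGAA, a core of the interferon-stimulated response element; matches may overlap. The core was present in 8.56% of all 32851 promoters and in 7.08% of those of the compared genes. It was present in 24 of 50 promoters of the compared interferon-stimulated genes (48%) and in 9 of 11 promoters of the GTPases described below (81.8%). Of the genes on these lists that were 4-fold higher in M32, 22 had a promoter in the table and 17 of those held the core. Counted by promoter, the core was in 17 of 23 promoters of these genes (73.9%). The share was 15.4% in promoters of the other genes 4-fold higher in M32 and 7.84% in promoters of those 4-fold higher in M8. A match is a stretch of letters, not a measured binding site. The whole promoters of Oas3, Isg15 and Igtp are shown as examples with 2, 3 and 1 matches, with the core in capitals.
Oas3 (chr5:120777610-120777909, - strand): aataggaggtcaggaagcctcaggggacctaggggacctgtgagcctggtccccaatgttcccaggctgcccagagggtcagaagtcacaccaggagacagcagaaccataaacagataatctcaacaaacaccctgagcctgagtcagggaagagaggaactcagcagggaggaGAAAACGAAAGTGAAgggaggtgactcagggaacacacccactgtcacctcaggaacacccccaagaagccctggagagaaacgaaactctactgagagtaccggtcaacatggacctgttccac
Isg15 (chr4:156200769-156201068, - strand): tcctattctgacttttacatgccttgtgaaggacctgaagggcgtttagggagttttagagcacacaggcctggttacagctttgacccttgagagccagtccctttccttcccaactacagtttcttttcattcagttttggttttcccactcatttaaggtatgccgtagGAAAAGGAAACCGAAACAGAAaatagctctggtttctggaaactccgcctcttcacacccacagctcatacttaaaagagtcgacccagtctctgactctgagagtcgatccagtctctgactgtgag
Igtp (chr11:58199306-58199605, + strand): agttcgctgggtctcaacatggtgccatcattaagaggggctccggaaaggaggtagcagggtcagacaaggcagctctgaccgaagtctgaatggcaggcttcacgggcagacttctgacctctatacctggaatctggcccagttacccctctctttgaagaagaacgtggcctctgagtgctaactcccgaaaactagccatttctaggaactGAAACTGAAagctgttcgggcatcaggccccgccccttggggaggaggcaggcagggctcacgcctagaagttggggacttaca

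Short windows around the first match in 7 further genes of the group show the bases that flank the core; the core itself is alike because the search fixed it. Each is written 5′ to 3′ on the strand that carries the core, with matched letters in capitals.
Gbp7 (chr3:142530278-142530298, - strand): agaactGAAACTGAAactgca
Gbp2 (chr3:142620599-142620619, - strand): gacagtGAAAGTGAAactaaa
Irgm2 (chr11:58214907-58214927, + strand): ggaactGAAACTGAAagctgt
Tgtp1 (chr11:48992309-48992329, - strand): ggaatcGAAACTGAAacctac
Ifi44 (chr3:151749899-151749919, + strand): cctgtaGAAAATGAAgagaaa
Ifit1 (chr19:34640774-34640794, - strand): GAAAGTGAAACTGAAgcctgc
Rsad2 (chr12:26456557-26456577, + strand): ttttctGAAAATGAAagttgg

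Genes that act on viral RNA were among the most different. Oas2, an oligoadenylate synthetase that activates RNase L, had 346 (control), 14 (M8), 340 (M32) and 674 (M83) counts, a level 25.7-fold higher in M32 than in M8 (15.1 to 47.5). Its relative Oas3 had 406, 51, 759 and 1534 counts (15.7-fold, 11.8 to 21.3), and Oasl2 had 441, 75, 843 and 943 (11.9-fold, 9.38 to 15.3). M8 was the low library in all 3 genes, and M32 lay between the control and M83 in 2 of them. Ifit1, which binds RNA that lacks the host cap mark, had 246, 71, 401 and 441 counts, 5.97-fold higher in M32 (4.63 to 7.80). Oas1a and Oas1g were 6.004-fold and 9.94-fold higher in M32, but 57.6% and 45.7% of their 50-base words occur in other genes, so reads may have been split between them.

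Several genes that block entry, replication or release were also lowest in M8, though the highest library varied. Ifi44, which forms part of the antiviral response by a mechanism little understood, had 125 (control), 14 (M8), 407 (M32) and 265 (M83) counts (30.7-fold, 18.1 to 56.7). Cmpk2 and Rsad2, neighbours on chromosome 12, encode a mitochondrial nucleotide kinase and viperin, the enzyme that makes a chain-terminating nucleotide. Cmpk2 had 79, 8, 196 and 188 counts (25.9-fold, 12.9 to 60.9) and Rsad2 81, 14, 66 and 97 (4.98-fold, 2.77 to 9.61). M32 was the highest library for Ifi44 and Cmpk2 and M83 for Rsad2. Isg15, the ubiquitin-like protein conjugated to targets during the response, had 182, 66, 277 and 297 counts (4.44-fold, 3.38 to 5.90), and Usp18, which removes it and restrains the receptor, had 88, 11, 189 and 346 (18.2-fold, 9.93 to 37.0). Mx2 was listed with 16, 2, 62 and 49 counts, and it is annotated as a polymorphic pseudogene.

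GTPases of the guanylate-binding and immunity-related families, which attack the vacuoles of intracellular pathogens, were lower in M8 in every member compared. Of 20 listed genes 12 were compared, all 12 at least 2-fold and 9 at least 4-fold higher in M32, with a median log2 ratio of -4.04. Gbp7 had 201 (control), 4 (M8), 139 (M32) and 183 (M83) counts (36.7-fold, 14.0 to 137). Irgm2, a regulator of the other family members, had 138, 12, 254 and 439 counts (22.4-fold, 12.6 to 43.9). M8 was at least 2-fold below every other library in 8 of the 12, and M32 at least 2-fold above every other library in 4; over all 10947 genes compared these numbers were 138 and 80. Iigp1 was high in M32 alone, with 4, 4, 83 and 10 counts, and Tgtp2 had 25, 28, 209 and 95. Tgtp1, its near copy, belonged to both sets with 26, 0, 58 and 22 counts, at least 16.1-fold higher in M32. Of the 50-base words of Tgtp1, 81.2% occur in other genes, mostly in Tgtp2, so the division of reads between the 2 is uncertain.

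Together the interferon and GTPase lists held 32 of the 101 genes 4-fold higher in M32 (31.7%), spread over 12 chromosomes, and 68 of the 10947 genes compared. Without chromosome 12 genes, which as a group were lower in M8, the interferon median was -1.46 in place of -1.59, an alternative chosen after seeing the data.

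**Figure D2:**
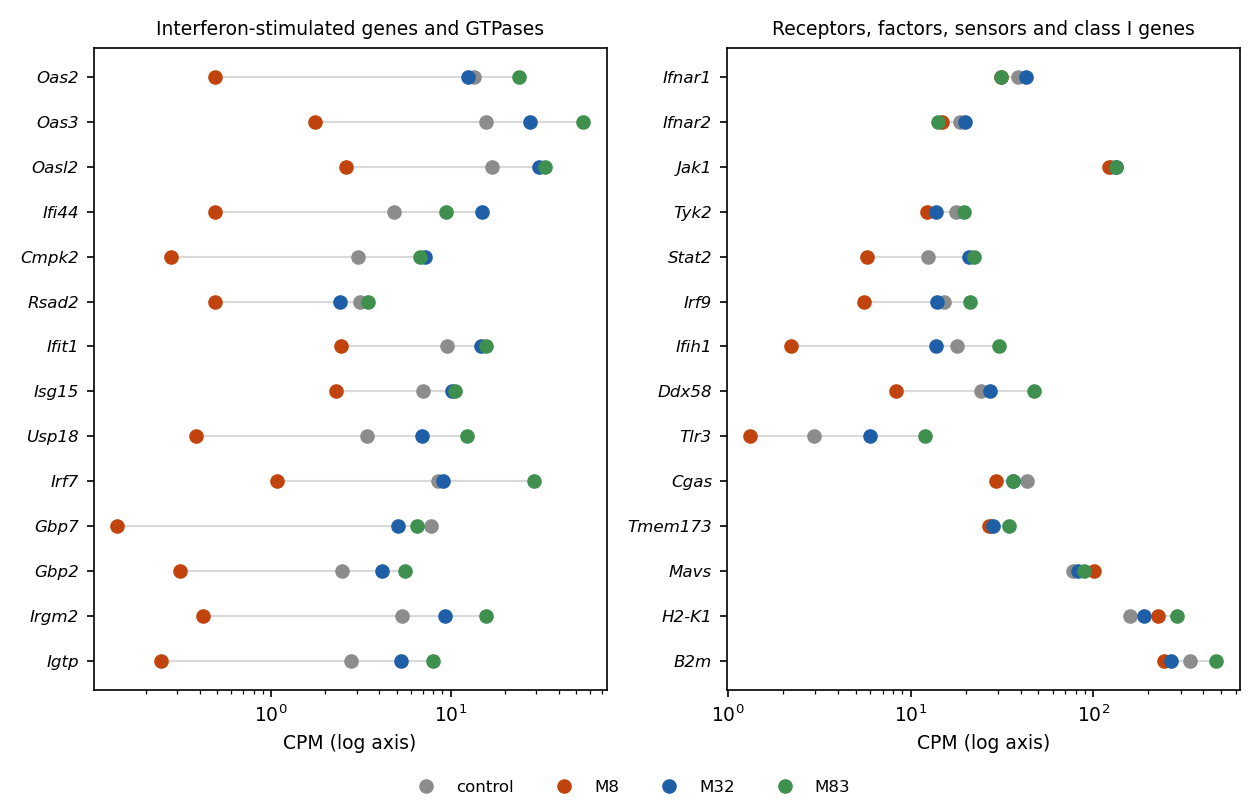
CPM on a log axis in the 4 libraries for 14 interferon-stimulated and GTPase genes (left) and for 14 receptors, factors, sensors and class I genes (right); each point is 1 library and grey bars join the lowest to the highest. M8 is the lowest point in every gene of the left panel, whereas the 4 libraries lie close together for Jak1, Tmem173 and Mavs.

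The signalling chain differed by step. The receptors were within 1.5-fold: Ifnar1 had 1000 (control), 897 (M8), 1166 (M32) and 877 (M83) counts (log2 ratio -0.46), and Ifnar2 had 477, 427, 544 and 397 (-0.43). Jak1 and Tyk2, the receptor kinases, had log2 ratios of -0.13 and -0.16. The transcription factors Stat2 and Irf9, which act after the receptor and are themselves interferon-stimulated, were lower in M8. Stat2 had 322, 166, 566 and 622 counts (3.61-fold higher in M32, 3.03 to 4.31), and Irf9 had 393, 161, 382 and 589 (2.51-fold, 2.08 to 3.04). Irf7, the factor that amplifies interferon production, had 220, 31, 249 and 811 (8.49-fold, 5.83 to 12.8). Across the 23 compared receptors and signalling genes the median log2 ratio was -0.13, and those at least 2-fold higher in M32 included these 3 factors and Usp18.

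Sensors of viral RNA were also lower in M8, and those of DNA were near level. Ifih1, the double-stranded RNA sensor MDA5, had 460 (control), 64 (M8), 373 (M32) and 847 (M83) counts (6.16-fold higher in M32, 4.72 to 8.17). Tlr3, the endosomal sensor, had 76, 38, 164 and 334 (4.56-fold, 3.19 to 6.68), and Ddx58, which encodes RIG-I, had 626, 240, 738 and 1326 (3.25-fold, 2.81 to 3.78). In all 3 the lowest library was M8 and the highest M83. The DNA sensor Cgas had a log2 ratio of -0.30, its adaptor Tmem173 (STING) had 712, 774, 773 and 970 counts (-0.08), and Mavs, the mitochondrial adaptor of the RNA sensors, had 1995, 2895, 2249 and 2472 (0.28).

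Antigen presentation was mostly level. Of 22 class I genes compared, 2 were 2-fold higher in M32 and 1 in M8, against 3.90% and 2.12% of all compared genes. The median log2 ratio was 0.07. The 8 peptide-loading genes varied more, from -0.89 to 1.16 with a median of -0.31, 4 of them above a ratio of 1 and 4 below. The heavy chain H2-K1 had 4104 (control), 6531 (M8), 5152 (M32) and 8023 (M83) counts (0.26), and H2-D1 had a log2 ratio of 0.24. Psmb8, an immunoproteasome subunit, differed most of the 22, with 83, 26, 202 and 195 counts, 8.22-fold higher in M32 (5.45 to 12.9). Cxcl10, the interferon-induced chemokine that draws T cells, had 136, 52, 197 and 194 (4.01-fold, 2.94 to 5.55). Apol9b and Apol9a, related apolipoprotein L genes, were 10.6-fold and 5.65-fold higher in M32, with 52.3% and 16.5% of their 50-base words found in other genes.

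The mitochondrial genome supplied 1.27% of all counts in M8 and 3.10% in M32, against 2.36% in the control and 2.50% in M83. All 13 messengers were lower in M8, 12 of them by at least 2-fold, against 3.90% of all compared genes. The median log2 ratio over the 15 genes counted was -1.37. The complex I subunit mt-Nd2 had 34210 (control), 11791 (M8), 52668 (M32) and 46658 (M83) counts, 4.72-fold higher in M32 (4.63 to 4.82). The cytochrome oxidase subunit mt-Co3 had 32488, 11779, 51460 and 45811 (4.62-fold, 4.53 to 4.71), and the complex I subunit mt-Nd4l had 3933, 1293, 5700 and 6072 (4.66-fold, 4.39 to 4.96). These 3 messengers were the ones past 4-fold, and M8 was low against every other library in each. The cytochrome oxidase subunit mt-Co1 had 148828, 79735, 207315 and 150441 counts (2.75-fold, 2.73 to 2.77), and mt-Nd3, the messenger short of 2-fold, had 6278, 6347, 11345 and 9484 (1.89-fold, 1.83 to 1.95). For mt-Nd3 M8 lay at the level of the control, and M32 was the high library.

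The 2 mitochondrial ribosomal RNAs, which are transcribed from the same strand ahead of most of the messengers, did not share the difference. The large one, mt-Rnr2, had 39547 (control), 52992 (M8), 49003 (M32) and 34810 (M83) counts (log2 ratio 0.03), and the small one, mt-Rnr1, had 9331, 8582, 10584 and 8598 (-0.38). The libraries were poly(A)-selected, so levels of RNAs that carry short tails depend on that step too; its part in the result was not tested.

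**Figure D3:**
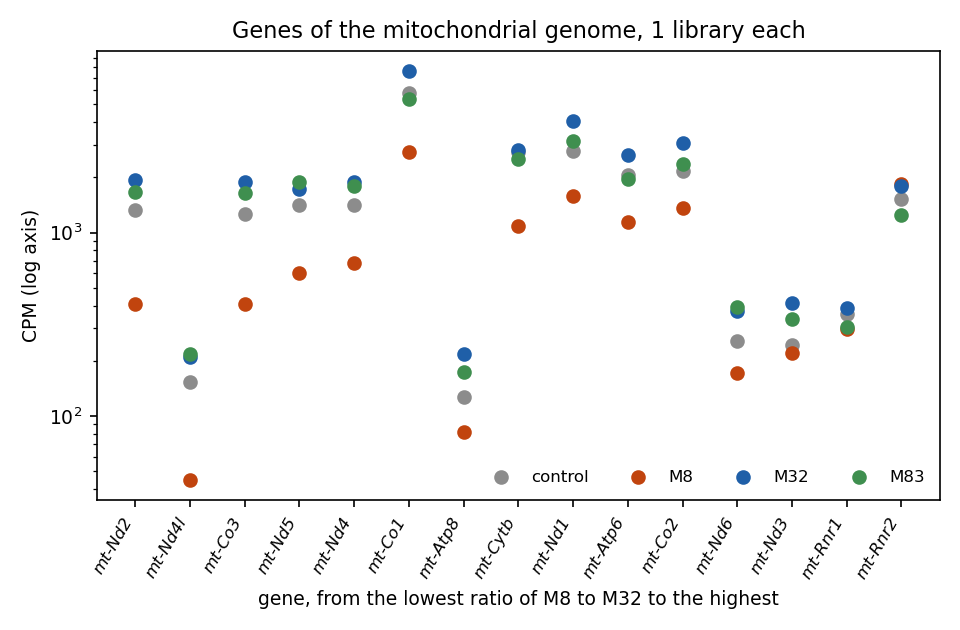
CPM (log axis) of the 15 genes of the mitochondrial genome in the 4 libraries, ordered by the ratio of M8 to M32, 1 library a line. M8 is the lowest point in all 13 messengers, while for mt-Rnr2 it is the highest.

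Nuclear genes for the same complexes did not follow. Of 37 nuclear oxidative phosphorylation genes compared none was past 2-fold in either direction. Over all compared genes 2.12% were 2-fold higher in M8 and 3.90% in M32. The median log2 ratio of the 37 genes was 0.21. Factors of mitochondrial transcription and RNA handling also had a median of 0.21 over 26 genes. Tfam, which packs mitochondrial DNA and helps start its transcription, had 1495 (control), 1687 (M8), 1177 (M32) and 1221 (M83) counts (0.44), and Lrpprc, which stabilises mitochondrial messengers, had 4664, 7039, 4919 and 5648 (0.44).

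Slirp, the partner of LRPPRC in that complex, was the only one of these factors past 2-fold, against 3.90% of all compared genes 2-fold higher in M32. Slirp had 643 (control), 279 (M8), 756 (M32) and 752 (M83) counts (2.87-fold higher in M32, 2.49 to 3.30). It lies on chromosome 12, and 97.8% of its annotated exon bases are shared with Snw1. Whether the counting used strand is not given in the sources used here, so reads of the 2 genes may not have been told apart.

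Position along the genome accompanied part of the difference. On chromosome 12, 387 genes were compared and 351 of them (90.7%) were lower in M8; their median ratio was 0.675 and the median log2 ratio -0.57. The shift ran along the whole chromosome, with medians between -0.85 and -0.39 in all 10 bins of 38 or 39 genes. Against the control the chromosome's median was -0.55 in M8 and -0.00 in M32, so M8 was the line that stood apart. Chromosome 12 held 3.54% of compared genes and 16.4% of the genes 2-fold higher in M32. No gene on it was 4-fold higher in M8, and 12 were 4-fold higher in M32.

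The distal part of chromosome 6 was shifted the other way. Bins 1 to 4 of 10 along it had medians between -0.16 and -0.01 and the fifth 0.08. From Gmcl1 at position 86691768 (GRCm38) to the end, bins 6 to 10 had medians of 0.28 to 0.65. In the last bin, from Ddx47 to Bicd1, 4 of 51 genes were lower in M8. Here M32 was the line that differed from the control, with bin medians between -0.47 and -0.31, while those of M8 lay between -0.16 and 0.09. The medians of the other nuclear chromosomes lay between -0.02 and 0.03. In 204 bins of about 50 genes on those chromosomes the median was never below -0.19 or above 0.20.

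**Figure D4:**
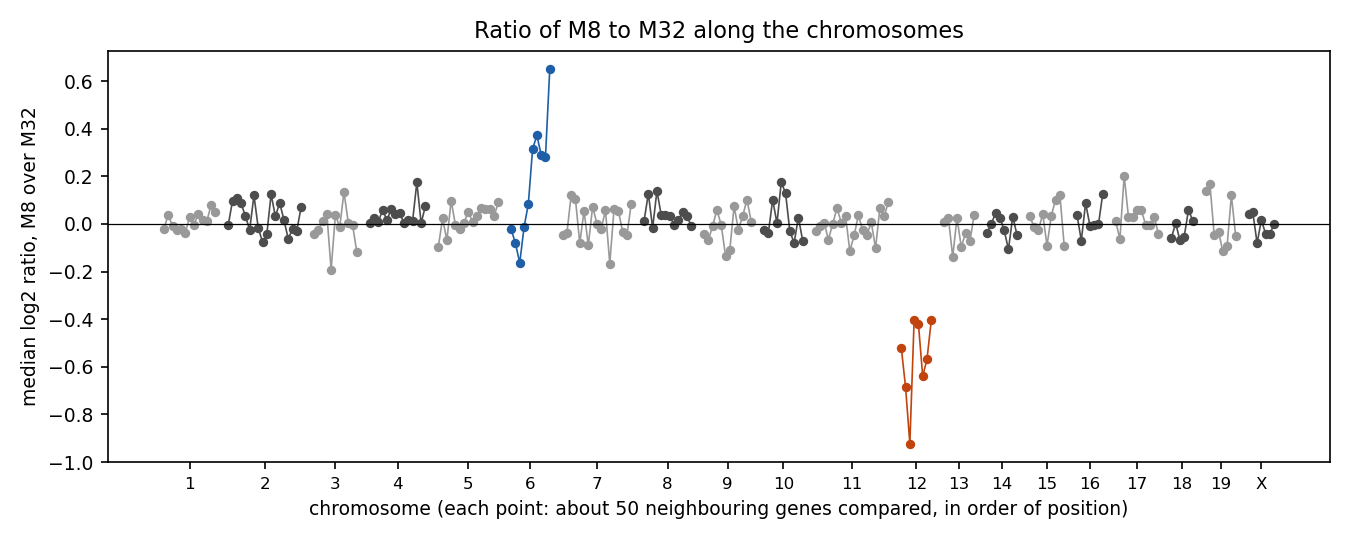
Median log2 ratio of M8 over M32 in bins of about 50 neighbouring compared genes, in order of position along chromosomes 1 to 19 and X. All 8 bins of chromosome 12 lie between -0.92 and -0.40 and the distal bins of chromosome 6 reach 0.65, while the 204 bins of the other chromosomes stay between -0.19 and 0.20.

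Several chromosome 12 genes were far below the chromosome's own shift. E2f6 (chr12:16810963-16839742, + strand), an E2F family repressor that works in a Polycomb complex and silences germline genes in body cells, had 369 (control), 6 (M8), 403 (M32) and 549 (M83) counts. Its level was 71.0-fold higher in M32 (32.3 to 195), which is 47.9-fold beyond the chromosome median. Both flanking compared genes, Lpin1 and Rock2, had a log2 ratio of -0.97, so the deep difference was limited to E2f6 among these neighbours. None of the other 25 compared Polycomb and E2F family genes was past 2-fold. Over all compared genes 2.12% were 2-fold higher in M8 and 3.90% in M32, so a group of this size could hold few or none. Of 34 germline genes known as targets of this repression, 3 reached 50 counts. Cpeb1 had 70, 159, 57 and 38 counts (log2 ratio 1.40), Sycp1 had 115, 154, 145 and 199 (0.01) and Brdt had 105, 161, 128 and 171 (0.25). Most of the others had 10 counts or fewer in both lines, and Spo11 had 12 in M8 and 44 in M32.

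Acot1 (chr12:84009490-84018371, + strand), a cytosolic thioesterase that splits fatty acyl-CoA, had 122 (control), 4 (M8), 106 (M32) and 209 (M83) counts (28.0-fold, 10.6 to 105). Its neighbours and relatives Acot2 and Acot6 had log2 ratios of -0.31 and -0.39. Acot1 shares 19.2% of its 50-base words with other genes, mostly Acot2. Pax9, a paired-box developmental factor, had 97, 6, 106 and 188 counts (18.7-fold, 8.30 to 52.0), and Crip2, a LIM-domain protein, had 1286, 159, 1385 and 1644 (9.21-fold, 7.81 to 10.9). In all 3 genes M8 was the low library, and the other libraries lay within 2-fold of one another.

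Genes of the ERK response were mostly higher in M8, and here M32 was the low line. Of 44 listed genes compared, 39 were above a ratio of 1, 10 were at least 2-fold and 3 at least 4-fold higher in M8, and none was 2-fold higher in M32. The corresponding shares over all compared genes were 2.12% and 0.594%. The median log2 ratio was 0.51. M32 lay at least 2-fold below each of the other 3 libraries in 8 of the 44, against 60 of all 10947 genes.

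Immediate early transcription factors led the group. Egr3 had 240 (control), 292 (M8), 47 (M32) and 258 (M83) counts (5.88-fold higher in M8, 4.31 to 8.18). Fosb, a subunit of the AP-1 factor, had 2207, 3485, 690 and 2070 (4.78-fold, 4.40 to 5.19), and its relative Fos had 587, 871, 240 and 520 (3.43-fold, 2.97 to 3.98). M32 was the lowest library in these 3 genes. Egr1 had 18871, 8137, 3253 and 12461 counts (2.37-fold, 2.27 to 2.46), so M8 was also below the control there. Others of the class were near level, among them Jun (0.21), Myc (0.22) and Jund (-0.42). Fos lies on chromosome 12 and was higher in M8 despite the shift of that chromosome.

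Feedback inhibitors gave smaller differences in the same direction. Dusp5, a nuclear ERK phosphatase, had 1641 (control), 2398 (M8), 641 (M32) and 2310 (M83) counts (3.54-fold higher in M8, 3.24 to 3.87). Errfi1, which inhibits the EGF receptor, had 6964, 6760, 2514 and 6092 (2.54-fold, 2.43 to 2.66). Both had M32 as the low library and the other 3 near one another. Dusp6, the cytoplasmic ERK phosphatase often used as a readout, had 3173, 3903, 2637 and 4640 (log2 ratio 0.49), and Dusp1 had a log2 ratio of -0.06.

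Of 29 growth factor and receptor genes compared, 3 were 2-fold higher in M8, against 2.12% of all compared genes. All 3 were EGF-family ligands, several of which are themselves ERK targets. Areg and Hbegf are also members of the ERK list above, so the counts of these lists overlap. Btc (betacellulin) had 416 (control), 629 (M8), 122 (M32) and 1004 (M83) counts (4.88-fold higher in M8, 4.01 to 5.97). Its chromosome 5 neighbour Areg (amphiregulin) had 637, 685, 146 and 536 (4.44-fold, 3.71 to 5.34), and the next, Ereg (epiregulin), had 4119, 4869, 2781 and 5131 (1.66-fold, 1.58 to 1.74). All 3 were lowest in M32. Hbegf had 2736, 3371, 1234 and 3685 (2.58-fold, 2.42 to 2.76). Nrg1 went the other way by less, with a log2 ratio of -0.21, and the receptor Erbb2 had 1024 counts in M8 and 938 in M32 (0.05).

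**Figure D5:**
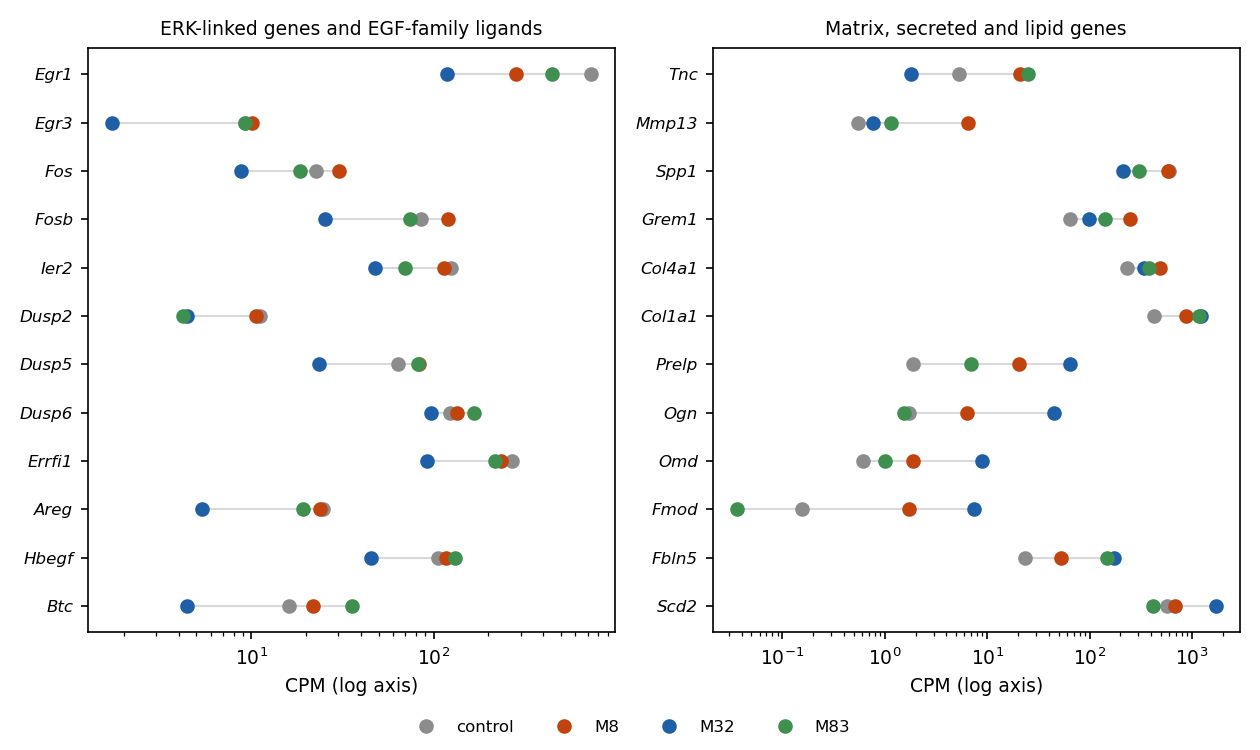
CPM on a log axis in the 4 libraries for 12 ERK-linked and EGF-family genes (left) and 12 matrix, secreted and lipid genes (right); each point is 1 library and grey bars join the lowest to the highest. M32 is the lowest point in all left-hand genes but Dusp2, where M83 is slightly lower, and the highest for Col1a1, Prelp, Ogn, Omd, Fmod, Fbln5 and Scd2.

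Matrix and secreted genes split between the 2 lines. Several small leucine-rich proteoglycans, a family that binds collagen and spaces its fibrils, were higher in M32. Of 18 listed genes 7 were compared. Of these, 4 were 2-fold and 3 were 4-fold higher in M32, against 3.90% and 0.923% of all compared genes. The median log2 ratio was -1.65. Podnl1 and Tsku were on the other side of 0, with log2 ratios of 0.17 and 0.21. Ogn (osteoglycin) had 45 (control), 184 (M8), 1233 (M32) and 43 (M83) counts (7.09-fold, 6.06 to 8.32), and Omd, beside it on chromosome 13, had 16, 55, 244 and 28 (4.69-fold, 3.49 to 6.41). Fmod (fibromodulin) had 4, 50, 202 and 1 (4.27-fold, 3.12 to 5.95), and Prelp had 49, 590, 1751 and 196 (3.14-fold, 2.86 to 3.45). In all 4 genes M32 was highest, M8 second, and the control and M83 below both.

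Other genes higher in M32 with the same order were Igf1, a growth factor, with 20, 52, 298 and 8 counts (6.06-fold, 4.50 to 8.30), and Arhgap28, a GTPase-activating protein, with 2, 32, 256 and 2 (8.46-fold, 5.84 to 12.6). Ablim1, an actin-binding LIM protein, had 0 (control), 26 (M8), 316 (M32) and 0 (M83) counts (12.9-fold, 8.61 to 19.98). These 3 genes were thus detected mainly in M32 and to a lesser degree in M8. Krt7, a simple-epithelium keratin, had 13, 16, 181 and 47 (11.96-fold, 7.17 to 21.4). Dapk1, a pro-death kinase, had 4, 0, 50 and 0, at least 13.8-fold higher in M32. Thbs1, a matricellular protein, had 1683, 7757, 15903 and 9884 (2.17-fold, 2.11 to 2.23), and Fbln5, an elastic-fibre protein, had 599, 1519, 4718 and 4190 (3.28-fold, 3.10 to 3.48).

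Other matrix genes were higher in M8. Tnc (tenascin-C) had 138 (control), 602 (M8), 49 (M32) and 706 (M83) counts (11.6-fold, 8.68 to 15.9). Mmp13, a collagenase, had 14, 190, 21 and 32 (8.56-fold, 5.44 to 14.1), so it was high in M8 alone. Its neighbours on chromosome 9 had too few counts for the comparison: Mmp3 had 34 in M8 and 0 in M32, and Mmp10 had 40 and 6. Spp1 (osteopontin) had 15381, 16701, 5833 and 8482 (2.71-fold, 2.63 to 2.79), and Grem1, a BMP antagonist, had 1664, 7243, 2709 and 3970 (2.53-fold, 2.42 to 2.64). Fibrillar Col1a1 (log2 ratio -0.48) and basement-membrane Col4a1 (0.52) differed by less, in opposite directions.

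Single genes outside these groups also were much higher in M8. Gpr141 (chr13:19749682-19824257, - strand), an orphan receptor, had 142 (control), 133 (M8), 0 (M32) and 4 (M83) counts, at least 33.6-fold higher in M8. Tnfrsf9, the co-stimulatory receptor 4-1BB, had 96, 316, 20 and 303 (14.9-fold, 9.51 to 24.8). Clstn3 (calsyntenin-3), within the shifted part of chromosome 6, had 309, 554, 54 and 494 (9.70-fold, 7.33 to 13.1). In these 3 genes M32 was the lowest library and lay far below M8 and the control, and for Gpr141 M83 was low too. Lipo3, a lipase family gene, had 0, 100, 0 and 0 counts, at least 25.2-fold higher in M8 and detected in that line alone. Of its 50-base words, 22.8% occur in other genes. Sema6d, a semaphorin, had 187, 507, 63 and 195 (7.61-fold, 5.85 to 10.1), and Sox9, a stem and progenitor factor, had 231, 433, 80 and 774 (5.12-fold, 4.02 to 6.58).

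Lipid synthesis genes were modestly higher in M32. Of 29 sterol genes compared, 24 were below a ratio of 1, with a median log2 ratio of -0.26. Of the 29, 2 were 2-fold higher in M32, against 3.90% of all compared genes. Mvd, a mevalonate pathway decarboxylase, had 242 (control), 491 (M8), 1047 (M32) and 227 (M83) counts (2.25-fold, 2.02 to 2.52). Scd2, a fatty acid desaturase, had 14680, 19735, 46722 and 11631 (2.50-fold, 2.46 to 2.55), and 14 of 15 fatty acid synthesis genes were below 1 with a median of -0.46. In Mvd and Scd2 M32 was the highest library and M8 lay between it and the control.

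Other groups had few or no genes past 2-fold. None of 47 cell cycle genes was; the 23 genes of G1/S and replication had a median log2 ratio of 0.02, while 22 of the 24 G2/M genes had a ratio below 1 and the median was -0.29. Nor was any of 48 ribosomal protein genes (-0.02), 26 p53 targets (0.16), 27 stress-response genes of the unfolded protein and integrated stress pathways (0.08) or 23 hypoxia and glycolysis genes (0.02). Of 34 TGF-beta and BMP pathway genes 2 were 2-fold higher in M8 and 1 in M32, with a median of -0.02. Over all compared genes these shares were 2.12% and 3.90%.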

How the data were processed

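RNA was sequenced from 4 cultured mouse lines, of which M8 and M32 are compared here. The authors deposited raw counts, whole numbers of reads per gene, in 1 table. The submitters' processing notes name the build GRCm38; which aligner, counter and strand setting were used is not stated in them or in the labels. The design text speaks of triplicates, but the table has 1 column per line and holds no unused sample column (0); whether a column is 1 library or a sum of replicates is not stated, and each was treated as 1 library. With no residual spread, no edgeR or DESeq2 test was possible. Ratios of CPM with exact 95% intervals were computed in Python 3.11.15 with scipy 1.17.1, for genes with at least 50 counts in the higher library, and the code was tested on simulated counts. TMM factors (edgeR 4.0.16) and DESeq2 1.42.0 size factors served as other scalings. Positions came from the GENCODE annotation of GRCm38 and promoters from RefSeq; 50-base words were compared between annotated transcripts.

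Named genes were those furthest from 1 or most abundant among the 4-fold genes, and the largest ratios in each of 41 gene lists; a few genes were added for context after their values were seen. Some results are not reported here. Members and lists were chosen with earlier results of these data known. Alternatives were other scalings, count minimums, a prior count, thinned libraries, a shorter promoter window and genes left out.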

Additional observations from a re-analysis of the deposited data

How the results depend on the processing

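No paired analysis was possible because each line has 1 count column, and for the same reason no library could be left out. Of 850 recomputed values, 802 stayed within counting error or, for numbers of genes, within 1.5 times, 45 moved further and 3 changed sign; 105 named genes were recomputed under the other scalings and a prior count of 2, and none changed direction. The count minimum set the number of calls. With at least 20 counts, 109 genes were 4-fold higher in M8 and 173 in M32, with at least 200 counts 22 and 39, and with no minimum 131 and 202. At 2-fold these numbers were 386 and 683, 114 and 214, and 612 and 1009. With at least 200 counts the median log2 ratio was -1.22 for interferon-stimulated genes, -2.43 for GTPases and -1.87 for leucine-rich proteoglycans, which had -1.81 with at least 20 counts. Scaled to totals without mitochondrial and chromosome 12 genes, which shifts every log2 ratio by -0.04, the mitochondrial median was -1.41. Medians near 0 changed sign: hypoxia and glycolysis genes had -0.0172 under that scaling and -0.00545 with no minimum, and growth factor genes -0.0805 with no minimum. The cause of these moves was not tested, beyond the number of genes each minimum admits. A floor of 3 counts equals 0.104 CPM in M8 and 0.110 in M32. The intervals do not use this floor, and they are wide for genes with few counts.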

Other observations

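Some further groups differed between the lines. Of 15 Hox genes compared, which set position along the body axis, all were lower in M8 than in M32, with a median log2 ratio of -0.55. Hoxa13, the gene of the hindgut end of its cluster, had 22 (control), 16 (M8), 67 (M32) and 27 (M83) counts (4.43-fold higher in M32, 2.54 to 8.19), while Hoxa9 had 830, 717, 738 and 683 (-0.12). The neurofilament genes Nefm and Nefl, which overlap each other in the annotation, were 3.39-fold and 2.73-fold higher in M8; Nefm had 6291, 13586, 3795 and 10840 counts, while Tubb3, a neuronal tubulin, had a log2 ratio of 0.51. The metallothionein Mt1, a metal-binding protein, had 2892, 4428, 1310 and 2041 counts (3.20-fold higher in M8, 3.00 to 3.40).

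Neighbouring aldo-keto reductase genes on chromosome 13, which reduce steroids and related carbonyl compounds, differed in direction. Akr1c18 had 10 (control), 176 (M8), 8 (M32) and 153 (M83) counts (20.8-fold higher in M8, 10.3 to 48.9). Akr1c14, beside it, had 47, 362, 681 and 35 counts, a log2 ratio of -0.99, and Akr1c13 had 50, 289, 162 and 170 (0.75). Of the genes 4-fold different, 11 of those higher in M8 and 12 of those higher in M32 share at least 50% of their exon bases with another gene. An example is Gm20388, a model that spans other genes on chromosome 8, with 0, 786, 7 and 0 counts; whether these counts come from that model or from the genes it spans was not tested.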
